A study of Mus musculus with 15 samples.

Results

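The genes examined were 10 genes of the stress hormone response: the 2 corticosteroid receptors Nr3c1 and Nr3c2, and 8 genes known to be induced by glucocorticoids, Fkbp5, Tsc22d3, Zbtb16, Sgk1, Pdk4, Cdkn1a, Mt1 and Mt2. They were chosen by name, with earlier results of these data known. All 10 were listed among the 25080 genes of the deposited tables. They were also among the 13471 genes that passed the filter on low values. RNA was sequenced from the thalamus of mice aged 2 to 4 months. Maged1-cKO mice carried a floxed Maged1 on a C57Bl6J background and a Vglut2-Cre driver, which acts in glutamatergic Vglut2 neurons, so that other cells of the dissected, unsorted tissue keep the gene, and control mice, titled Maged1 WT, carried the floxed gene without Cre. Saline was injected intraperitoneally for 3 days of habituation, followed by cocaine at 20 mg/kg or saline once daily for 5 days. After saline there were 4 libraries for control and 4 for cKO, and after cocaine 4 titled control and 2 titled cKO. The series has 15 samples, of which 1 titled cKO with cocaine was not analysed here. The study's methods divide these samples between cocaine and saline otherwise than the titles do, by 1 sample. Which is right is unknown, which bears on every value of cocaine against saline, and titles were used.

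Corticosterone, the main glucocorticoid of the mouse, is released by the adrenal gland in a daily rhythm and in response to stress, and cocaine is known to raise it. In target cells it binds the glucocorticoid receptor (Nr3c1) and, with higher affinity, the mineralocorticoid receptor (Nr3c2). The receptors are held in a chaperone complex with heat shock proteins, enter the nucleus when the hormone binds, and raise or lower the transcription of target genes.

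The values are in TPM, a share of all transcripts in which each gene is already divided by transcript length, so that levels may be compared between genes. Each library was divided by a trimmed-mean (TMM) factor, and these values are called scaled TPM. Differences are given as log2 fold changes of the scaled TPM plus 0.5, with the standard error (SE) from limma, and a gene is called when its adjusted p-value was under 0.05 and its log2 fold change at least 0.5 in size. The factors were 0.807 to 0.939 in the cocaine libraries and 1.07 to 1.22 in the saline libraries. Since TPM keep no depth, counting error is unknown.

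The labels of some libraries disagree. Maged1, the inactivated gene, had 149.9 to 167.2 scaled TPM in the control saline libraries and 64.6 to 77.4 in the cKO saline libraries. It had 58.5 to 87.7 in the cocaine libraries labelled control, and 153.8 and 174.0 in the cocaine pair labelled cKO, which goes against both labels. The genotype tag of 4 saline libraries also names the other genotype than the title, and titles were used. Effects of cocaine within a genotype label thus compare libraries with different Maged1 levels, and an effect of cocaine was therefore also estimated over all 6 cocaine and 8 saline libraries with the genotype label not used. The labels tie no library to an animal, a litter or a day, so p-values measure only the spread between these samples.

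The clearest change was in the metallothioneins. Mt1 and Mt2 encode small cysteine-rich proteins that bind zinc and copper, and both genes are known to be induced by glucocorticoids and by metals. On chromosome 8 of GRCm38 Mt2 occupies 94172664 to 94173568 and Mt1 94179082 to 94180327, both on the plus strand, with 5513 bases between them. Both rose with cocaine in the libraries of each genotype label, and all 6 cocaine libraries lay above all 8 saline libraries. Over all libraries 31.6% of all tested genes had an adjusted p under 0.05 by limma. How many of them separated fully, in this or any other comparison given here, was not counted.

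The starts of these neighbours are shown because the pair moved together. RefSeq promoter windows (GRCm38.p6, 250 bases before to 50 after a start) were found for 8 of the 10 members. Nr3c1 and Zbtb16 had no window. The capitals mark the core of the metal response element, TGCACNC or TGCGCNC on either strand, where N is any base. The windows are chr8:94178839-94179138 for Mt1 and chr8:94172368-94172667 for Mt2, both on the plus strand.
Mt1: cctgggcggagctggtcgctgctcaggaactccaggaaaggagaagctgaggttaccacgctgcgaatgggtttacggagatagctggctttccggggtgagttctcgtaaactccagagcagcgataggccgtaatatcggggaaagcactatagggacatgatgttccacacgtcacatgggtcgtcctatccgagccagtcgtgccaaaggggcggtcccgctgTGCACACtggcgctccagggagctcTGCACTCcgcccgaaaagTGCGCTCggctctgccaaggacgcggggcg
Mt2: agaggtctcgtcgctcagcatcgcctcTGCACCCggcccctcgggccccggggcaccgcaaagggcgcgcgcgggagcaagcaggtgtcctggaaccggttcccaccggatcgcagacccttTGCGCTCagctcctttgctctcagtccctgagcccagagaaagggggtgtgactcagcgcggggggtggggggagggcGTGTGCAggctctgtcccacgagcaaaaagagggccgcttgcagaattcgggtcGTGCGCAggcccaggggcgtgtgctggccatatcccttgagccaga

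The Mt1 window held 3 such cores and the Mt2 window 4. Of 32851 windows of the same length, 25.7% held at least 1 core and 0.517% held at least 4. Neither window held a half-site of the glucocorticoid response element, AGAACA or its reverse complement TGTTCT, which 19.0% of all windows held. These letters say nothing of sites outside the windows.

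In the control saline libraries Mt1 stood at 153.3, 153.9, 144.8 and 154.1 scaled TPM. In the cocaine libraries labelled control it stood at 222.9, 209.0, 234.1 and 223.8. All 4 of the latter lay above all 4 of the former. Mt1 stood at 155.9, 148.6, 168.1 and 159.0 in cKO saline and at 239.7 and 230.7 in the cocaine libraries labelled cKO. The same separation was thus seen under the other genotype label. The log2 fold change was 0.55 (SE 0.04, adjusted p = 2.03e-05) for control and 0.57 (SE 0.05, adjusted p = 0.000100) for cKO. Over all libraries it was 0.55 (SE 0.04, adjusted p = 2.48e-07), a fold of 1.46 with a 95% interval from 1.39 to 1.55. An exact two-sided permutation test over the 14 libraries gave p = 0.000666, the smallest that 6 against 8 can give.

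Mt2, expressed at about the level of Mt1 divided by 1.73 to 2.08 in every library, followed the same course. It stood at 74.3, 83.0, 74.6 and 84.0 scaled TPM in control saline and at 114.6, 100.3, 126.8 and 129.2 in the cocaine libraries labelled control. In cKO saline it stood at 80.9, 74.7, 88.5 and 91.3, and in the cocaine libraries labelled cKO at 137.0 and 126.3. No cocaine library of either label fell within the saline range. The log2 fold change was 0.57 (SE 0.08, adjusted p = 0.000744) for control, 0.65 (SE 0.10, adjusted p = 0.00141) for cKO and 0.58 (SE 0.07, adjusted p = 2.53e-05) over all libraries. The exact permutation test over the 14 libraries again gave 0.000666.

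The size of the change did not differ detectably between the genotype labels. The interaction was 0.02 for Mt1 (95% interval -0.13 to 0.18, adjusted p = 0.904) and 0.08 for Mt2 (95% interval -0.21 to 0.37, adjusted p = 0.795). Between genotypes after saline the difference was 0.06 (SE 0.04) for Mt1 and 0.08 (SE 0.08) for Mt2, and neither was called. Both genes rose after leaving out the 2 cocaine libraries labelled cKO, by 0.52 for Mt1 (adjusted p = 1.03e-05) and 0.53 for Mt2 (adjusted p = 0.000393), an alternative chosen after seeing the data.

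The scaling sets the size of this result. In TPM as deposited the median log2 difference of all tested genes between cocaine and saline was -0.34 with the genotype label not used. On that scale Mt1 was 182.9 to 224.9 TPM with cocaine and 162.0 to 204.4 with saline, so the ranges overlapped, and its log2 fold change was 0.16 (adjusted p = 0.0171). That of Mt2 was 0.20 (adjusted p = 0.0368), so both genes kept a positive sign but were under the fold minimum. Under quantile normalization the changes were 0.42 and 0.49, also under the minimum, with adjusted p-values of 9.87e-06 and 0.000134. In the plot of the 4 scalings both genes lie above the median of all genes under each.

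**Figure D1:**
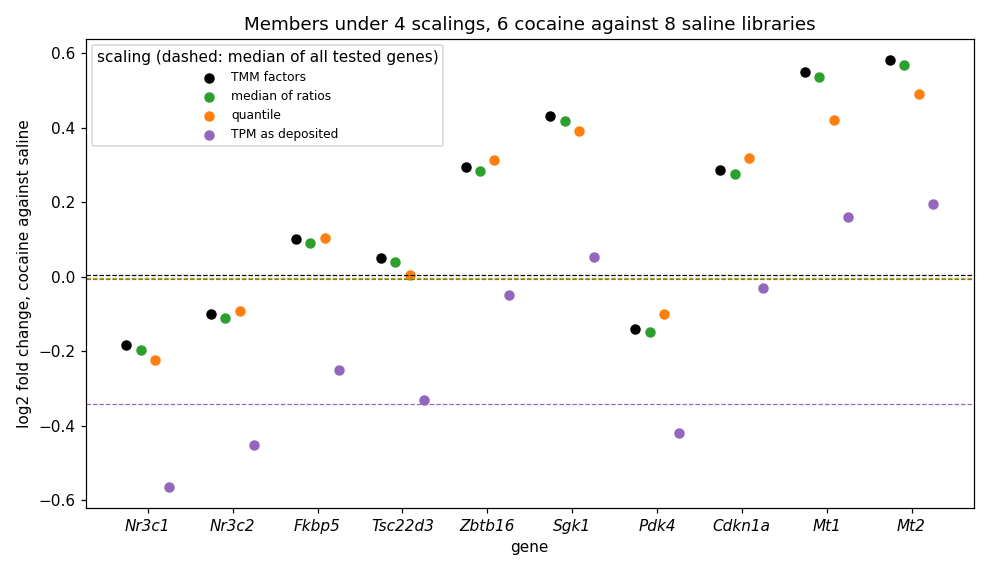
Log2 fold change of each of the 10 members between 6 cocaine and 8 saline libraries, with the genotype label not used, under 4 scalings of the TPM. Each point is 1 gene under 1 scaling and the dashed lines are the medians of all tested genes, which lie near 0 for the first 3 scalings and at -0.34 for TPM as deposited. Mt1 and Mt2 are the highest points under every scaling.

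Mt3, the brain-enriched relative, stood at 268.8 to 354.7 scaled TPM with saline and 312.2 to 374.2 with cocaine, so its groups overlapped. Its log2 fold change over all libraries was 0.21 (SE 0.06, adjusted p = 0.0233), under the fold minimum. Transcripts of Mt1 shared 0 words of 31 bases with those of Mt2 or Mt3. Of the 5 tested genes of a list of zinc handling genes (Mt3, the zinc sensor Mtf1 and zinc transporters), 0 were called in either direction with the genotype label not used, and their median was -0.02. Slc30a1, the zinc exporter, had -0.24 (SE 0.05, adjusted p = 0.00105). The summed level of 7 astrocyte markers, a cell type in which metallothioneins are abundant, was 410.6 to 455.8 scaled TPM with cocaine and 361.7 to 428.2 with saline. Single markers were mixed, with 4 of 7 positive over all libraries and a median of 0.04. Under the control label 3 of 7 were positive (median -0.0019) and under the cKO label 5 of 7 (median 0.15). The part of astrocytes in the rise was not tested. In bulk tissue, fewer cells of a type and less RNA per cell cannot be told apart.

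Sgk1 encodes a kinase that acts on ion channels and transporters and is among the genes most quickly induced by corticosteroids. It rose in the cocaine libraries labelled cKO. One of its 6 RefSeq windows is shown because it held the full glucocorticoid response element, AGAACA, any 3 bases and TGTTCT, which was found in 3 of the 32851 windows. None of the other Sgk1 windows and no window of another member held this element. Its part in the values of Sgk1 was not tested. The window shown is chr10:21993640-21993939 of GRCm38.p6 on the plus strand, within the gene's span from 21882184 to 21999903, and the capitals mark the element.
Sgk1: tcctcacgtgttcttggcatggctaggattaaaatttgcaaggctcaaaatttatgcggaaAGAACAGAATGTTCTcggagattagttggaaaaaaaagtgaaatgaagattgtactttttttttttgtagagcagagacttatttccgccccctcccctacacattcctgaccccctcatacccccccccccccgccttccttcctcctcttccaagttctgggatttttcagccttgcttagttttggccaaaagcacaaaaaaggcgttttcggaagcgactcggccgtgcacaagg

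The scaled TPM of Sgk1 were 15.0, 13.2, 18.0 and 16.1 in cKO saline, and 31.7 and 29.4 in the cocaine libraries labelled cKO. These last 2 were the highest of all 14 libraries. On the log2 scale the change was 0.95 (SE 0.21, adjusted p = 0.00751), a fold of 1.94 with a 95% interval from 1.42 to 2.64. The exact permutation test of 2 against 4 libraries cannot give less than 0.133, which is what it gave. Without replicate 1 of this cocaine pair the value was 0.90 and without replicate 2 it was 1.01, each time with only 1 cocaine library left. Without the libraries whose titles and tags disagree the value was 0.82 (adjusted p = 0.106) and was not called, with fewer saline libraries compared.

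Under the control label Sgk1 did not separate. It stood at 18.8, 12.6, 16.7 and 14.5 scaled TPM in control saline and at 14.1, 19.2, 13.98 and 24.6 in the cocaine libraries labelled control. Replicates 2 and 4 of the latter lay above every control saline library, while replicates 1 and 3 lay within their range. The difference was 0.17 on the log2 scale (SE 0.17, adjusted p = 0.491). The difference between the labels was 0.78 (SE 0.27, 95% interval 0.20 to 1.36), with an adjusted p of 0.146, so it was not called. Over all libraries the change was 0.43 (SE 0.18, adjusted p = 0.0755). It was called without control cocaine replicate 1 (0.54, adjusted p = 0.0234) or replicate 3 (0.55, adjusted p = 0.0243), and was 0.17 without both cocaine libraries labelled cKO. Among 6 tested relatives and substrates of Sgk1, such as Sgk3, Nedd4l and Ndrg1, 0 were called in either direction over all libraries, and their median was 0.03.

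The plot of levels gives all 10 members by library. Per length, Mt1 and Mt2 were the highest and Pdk4 the lowest.

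**Figure D2:**
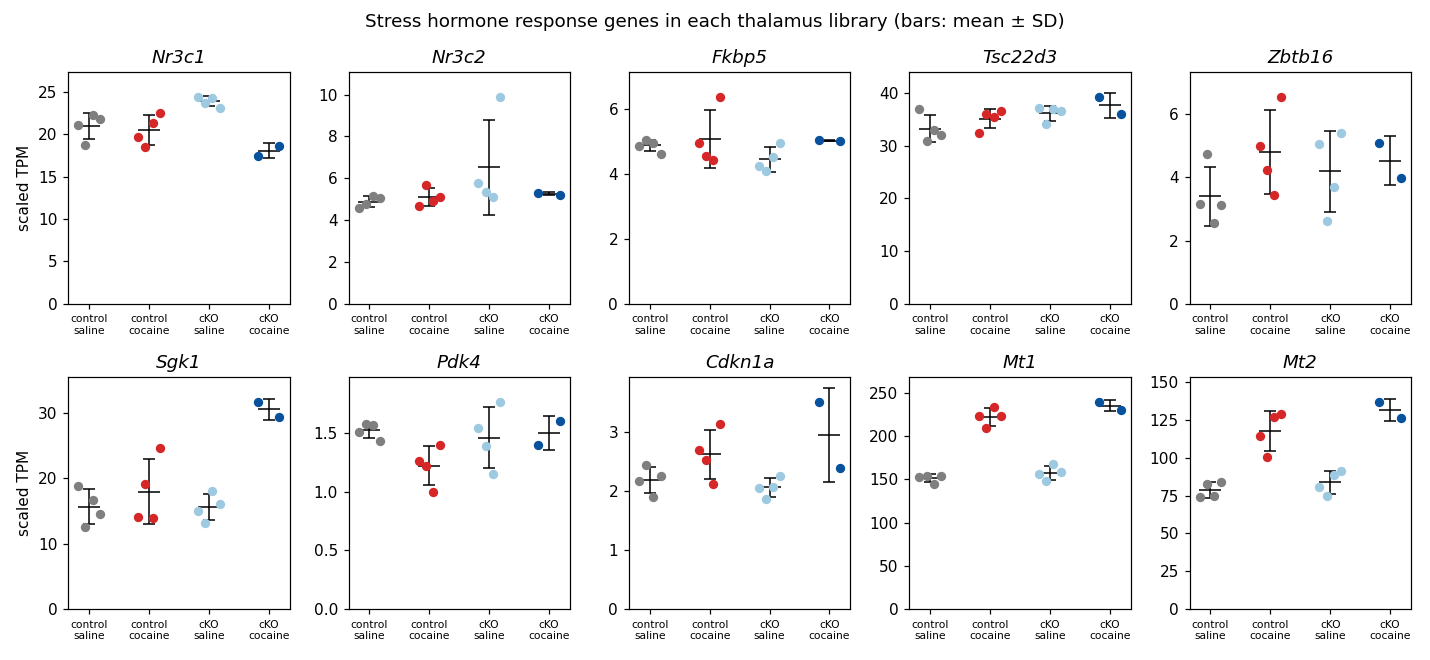
Scaled TPM of each member in every library, 1 point per library, with the mean and SD of each group as bars. The vertical axes start at 0 and differ between panels, and groups follow the sample titles. For Mt1 and Mt2 the cocaine points of both labels lie above all saline points, and for Nr3c2 1 cKO saline library stands at 9.90. For Sgk1 the 2 cocaine libraries labelled cKO are the highest. Replicates 2 and 4 of the cocaine libraries labelled control also lie above all saline points of Sgk1.

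With cocaine in the libraries labelled control, 2 of 10 members were called higher (Mt1 and Mt2) and 0 lower, where 1.43% of all tested genes were called higher and 1.66% lower. In the libraries labelled cKO, 3 of 10 were called higher (Sgk1, Mt1 and Mt2) and 0 lower, against 1.97% and 1.17% of all genes. Over all 6 cocaine and 8 saline libraries 2 of 10 were called higher and 0 lower, against 1.07% and 1.01%. The members' median log2 fold changes were 0.13, 0.15 and 0.20 in these comparisons, and the medians of all tested genes were 0.00, 0.01 and 0.01. No member was called in the other 3 comparisons, as given with each. The comparisons share saline or cocaine libraries with each other. The members were chosen with earlier results of these data known, so these counts are no independent test of them.

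**Figure D3:**
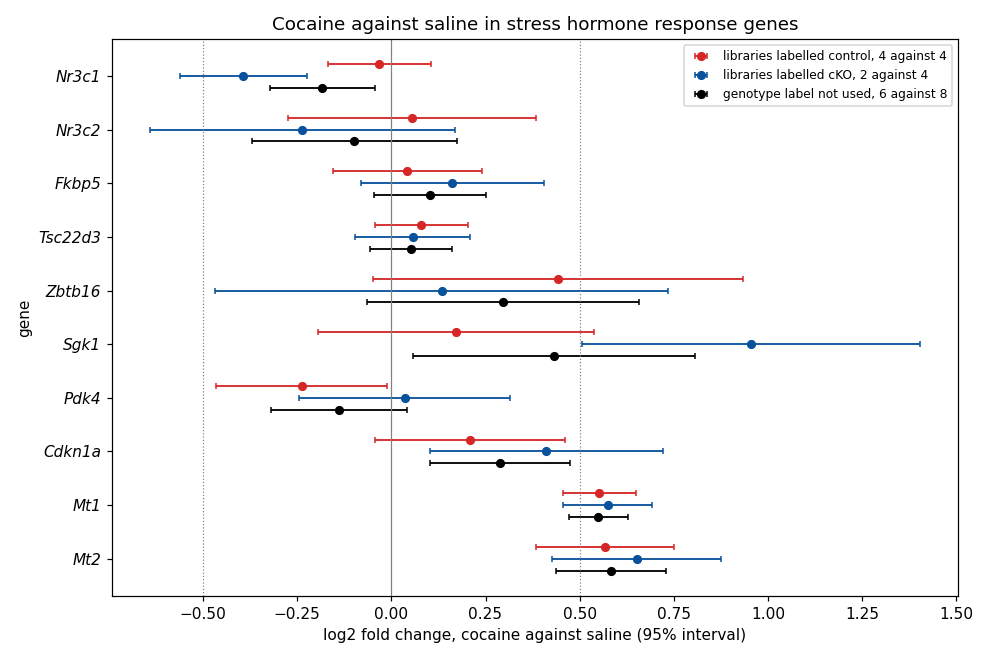
Log2 fold change of cocaine against saline for each member with its 95% interval from limma, in the libraries labelled control, in those labelled cKO and over all libraries. Dotted lines mark the fold minimum of 0.5 in either direction. The 3 estimates lie close to each other for Mt1 and Mt2, and are farthest apart for Sgk1.

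Neither receptor was called. Nr3c1, which encodes the glucocorticoid receptor on chromosome 18, stood at 24.4, 23.7, 24.3 and 23.1 scaled TPM in cKO saline and at 17.4 and 18.6 in the cocaine libraries labelled cKO. The latter were below every cKO saline library. The log2 fold change was -0.39 (SE 0.08, 95% interval -0.56 to -0.23), with an adjusted p of 0.00457, but it was under the fold minimum and so not called. In control saline Nr3c1 stood at 21.0, 18.7, 22.2 and 21.8, and in the cocaine libraries labelled control at 19.6, 18.5, 21.3 and 22.5. These groups overlapped, and the log2 fold change was -0.03 (SE 0.06). The difference between the labels was -0.36 (SE 0.10, adjusted p = 0.0874).

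The saline groups did not overlap in Nr3c1 either. All 4 cKO saline libraries were above all 4 control saline libraries, by 0.19 (SE 0.06), with an adjusted p of 0.174 and an exact two-sided permutation p of 0.0286, the smallest for 4 against 4. With the genotype tags in place of the titles this difference was 0.06. Between genotypes after saline 16.7% of all tested genes had an unadjusted p under 0.05 by limma, and the share separating fully was not counted. Over all libraries the change of Nr3c1 with cocaine was -0.18 (SE 0.07, adjusted p = 0.0439), and without the 2 cocaine libraries labelled cKO it was -0.13 (adjusted p = 0.214). In TPM as deposited, where most genes were lower with cocaine, it was -0.56 and was called.

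Nr3c2 encodes the mineralocorticoid receptor, which also binds aldosterone (chromosome 8, 76899442 to 77245012, plus strand). It stood at 4.57 to 5.13 scaled TPM in control saline, at 4.70 to 5.67 in the cocaine libraries labelled control and at 5.31 and 5.21 in the cocaine pair labelled cKO. In cKO saline it stood at 5.76, 5.33, 5.08 and 9.90. The fourth library stands apart from all others. The summed level of 6 cortex and hippocampus markers was 101.6 scaled TPM in that library and 15.4 to 34.7 in the other 13, and Nr3c2 is known to be abundant in the hippocampus; the part of such tissue in the value was not tested. The difference between cKO and control after saline was 0.33 (SE 0.15, adjusted p = 0.293) and was 0.13 (adjusted p = 0.356) without that library. With cocaine over all libraries the log2 fold change was -0.10 (95% interval -0.37 to 0.17). That value includes the fourth cKO saline library, and the medians were 5.11 scaled TPM with saline and 5.17 with cocaine.

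The genes most used as markers of receptor activity were not called. Fkbp5 encodes a co-chaperone that lowers the receptor's affinity for its hormone and is itself induced by the receptor (chromosome 17, 28399094 to 28517527, minus strand). It ranged from 4.10 to 5.07 scaled TPM over the 8 saline libraries and stood at 4.97, 4.57, 4.44 and 6.39 in the cocaine libraries labelled control and at 5.04 and 5.03 in the cocaine pair labelled cKO. Control cocaine replicate 4 lay outside the range of all saline libraries, and the pair labelled cKO lay above the 4 cKO saline libraries (0.16, adjusted p = 0.336). Over all libraries the log2 fold change was 0.10 (95% interval -0.05 to 0.25, adjusted p = 0.291), and that interval does not reach the fold minimum.

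Tsc22d3 (chromosome X, 140539528 to 140600659, minus strand) encodes GILZ, a leucine zipper protein that mediates part of the anti-inflammatory action of glucocorticoids. It ranged from 30.97 to 37.2 scaled TPM with saline and from 32.4 to 39.3 with cocaine, and the groups overlapped. Its log2 fold change over all libraries was 0.05 (95% interval -0.06 to 0.16, adjusted p = 0.479). In TPM as deposited both genes turned to negative values, -0.25 for Fkbp5 and -0.33 for Tsc22d3, close to the median of all genes on that scale. Of the 3 tested relatives of Tsc22d3 0 were called in either direction over all libraries, with Tsc22d4 at 0.23 and Tsc22d2 at -0.13.

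Zbtb16 encodes PLZF, a zinc finger repressor that is strongly induced by steroids in many tissues (chromosome 9, 48654297 to 48836222, minus strand). It stood at 3.17, 4.76, 2.56 and 3.12 scaled TPM in control saline and at 5.00, 4.24, 3.45 and 6.56 in the cocaine libraries labelled control. In cKO saline it ranged from 2.63 to 5.41, and the cocaine libraries labelled cKO had 5.08 and 3.98. The groups overlapped under both labels. Over all libraries the difference was 0.30 with a 95% interval from -0.07 to 0.66 (adjusted p = 0.203), so a change past the fold minimum could not be told from none in these libraries.

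Cdkn1a encodes the cell cycle inhibitor p21, a target of p53 that glucocorticoids also induce (chromosome 17, 29090976 to 29100727, plus strand). It ranged from 1.87 to 2.43 scaled TPM over the saline libraries. It stood at 2.70, 2.53, 2.12 and 3.13 in the cocaine libraries labelled control and at 3.51 and 2.39 in the cocaine pair labelled cKO, so 4 of 6 cocaine libraries lay above every saline library. Over all libraries the log2 fold change was 0.29 (SE 0.09, adjusted p = 0.0208) with an exact two-sided permutation p of 0.00799, under the fold minimum. For cKO it was 0.41 (SE 0.14, adjusted p = 0.0586). That value was 0.65 without cKO cocaine replicate 2 and 0.18 without replicate 1, each time with only 1 cocaine library labelled cKO left. Of 8 other p53 targets tested, such as Mdm2 and Ccng1, 0 were called in either direction, and their median was -0.04 over all libraries.

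Pdk4 encodes a kinase that turns off pyruvate dehydrogenase, so that cells burn fat in place of glucose (chromosome 6, 5483351 to 5496309, minus strand). Its levels were the lowest of the 10, where the added 0.5 makes fold changes smaller. It stood at 1.51, 1.58, 1.57 and 1.43 scaled TPM in control saline and at 1.26, 1.22, 0.997 and 1.40 in the cocaine libraries labelled control. All 4 of the latter were lower (exact two-sided permutation p = 0.0286), with a log2 fold change of -0.24 (SE 0.11) and an adjusted p of 0.119. Under that label 37.1% of all tested genes had an unadjusted p under 0.05 by limma, and the share separating fully was not counted. In cKO saline Pdk4 ranged from 1.15 to 1.76. The cocaine libraries labelled cKO, at 1.39 and 1.60, lay within that range. Of 9 tested genes of the same fuel switch 1 was called over all libraries, the fatty acid sensor Ppard, which rose by 0.54 (SE 0.10, adjusted p = 0.000828).

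Between genotypes after saline 0 of 10 members were called higher or lower by limma, where 0.00742% of all tested genes were called higher and 0.0445% lower. At an unadjusted p under 0.05 there were 2 members, Nr3c1 and Nr3c2, near the 16.7% of all tested genes. Between the cocaine libraries of the 2 labels 0 members were called in either direction, against 0.0148% and 0.0223% of all genes, with 2 members at an unadjusted p under 0.05 (Sgk1 at 0.79 and Nr3c1 at -0.18), where 11.9% of all genes were. For the interaction 0 were called, against 0.490% of genes called higher and 0.312% lower, and Sgk1 and Nr3c1 had an unadjusted p under 0.05, as did 18.1% of all genes. So few genes were called in the genotype comparisons that a count of 0 among 10 says little of these members.

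Other genes known to be induced by glucocorticoids were taken as a list of 22, of which 20 were tested. The list was chosen with earlier results of these data known. Over all libraries all 20 had positive log2 fold changes with a median of 0.34, where that of all tested genes was 0.01. Of the 20, 3 were called higher and 0 lower, against 1.07% and 1.01% of all tested genes. Per1, a clock gene with a glucocorticoid response element, rose by 0.58 (SE 0.09, adjusted p = 0.000270) from a mean of 12.3 to 18.7 scaled TPM. Plin4, which coats lipid droplets, rose by 0.76 (SE 0.23, adjusted p = 0.0231), and Arl4d, a small GTPase, rose by 0.53 (SE 0.15, adjusted p = 0.0147). With no fold minimum 11 of the 20 were past the adjusted p, Ddit4, Nfkbia, Fam107a and Klf15 among them, where 31.6% of all tested genes were. Leaving out either of the cocaine libraries labelled cKO reduced the 3 calls to 1 (Per1), and leaving out control saline replicate 1 or control cocaine replicate 4 reduced them to 2.

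Calls in this list differed in number between the labels. In the cocaine libraries labelled cKO 7 of 20 were called higher and 0 lower, against 1.97% and 1.17% of all tested genes. The median there was 0.48. In the cocaine libraries labelled control 0 were called in either direction, against 1.43% of all tested genes higher and 1.66% lower. Under that label the median was 0.21 and 19 of 20 were positive. The interaction, which tests the difference between the labels, called 0 of the 20, against 0.490% of all genes higher and 0.312% lower. Plin4 had 1.47 (SE 0.31) under the cKO label and 0.33 under the control label, and its interaction was not called (adjusted p = 0.160). The called genes under the cKO label also included Hif3a at 0.75 and Nfkbia at 0.61. Without both cocaine libraries labelled cKO, 19 of 20 stayed positive, the median was 0.22 and Per1 alone was called. In TPM as deposited 9 of 20 were positive and 0 were called, with a median of -0.04.

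**Figure D4:**
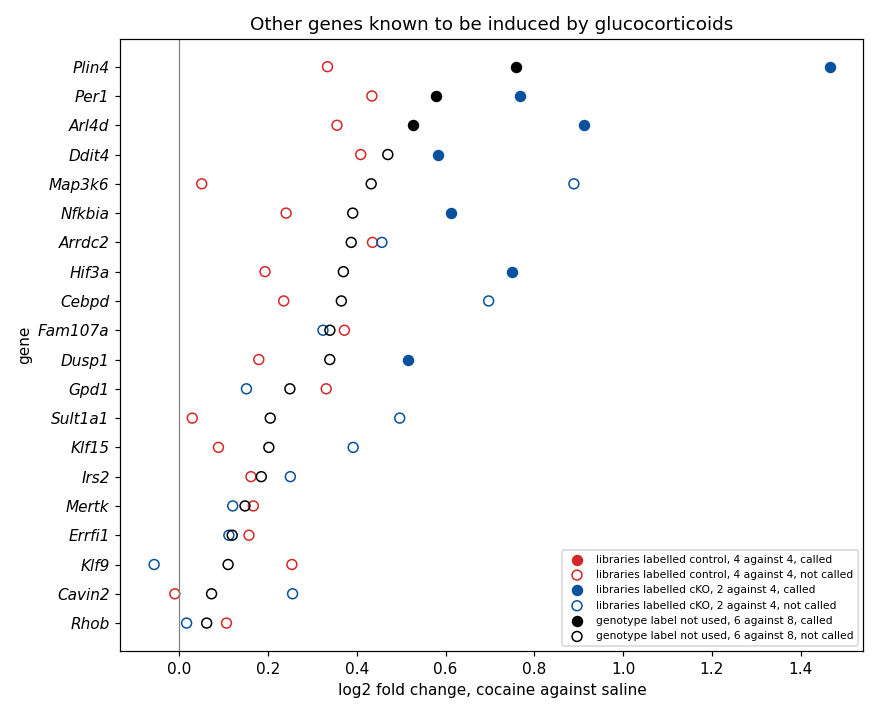
Log2 fold change of cocaine against saline for the 20 tested genes of the list of other glucocorticoid-induced genes, ordered by the value over all libraries. Filled points are called, open points are not, and colours give the libraries compared. All 20 black points lie to the right of 0, and 7 blue points, from the libraries labelled cKO, are filled.

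The machinery around the receptors was also measured. Of 12 tested genes of the receptor complex and its coregulators 11 were positive with cocaine over all libraries and 0 were called in either direction, with a median of 0.17. Hsp90ab1, the chaperone that holds the receptor ready for hormone, had 0.34 (SE 0.03, adjusted p = 3.78e-06), and the co-chaperones Stip1 and Fkbp4 had 0.32 (SE 0.05) and 0.26 (SE 0.04). All 3 were under the fold minimum. Of 4 tested genes listed as steroid supply (H6pd, Srd5a1, Hsd11b1 and Abcb1a), and of 2 tested other steroid receptors, 0 were called. The progesterone receptor Pgr had -0.30 (SE 0.05, adjusted p = 0.000762). Of 5 tested peptides and receptors of the stress axis 1 was called lower over all libraries, Avp, at -2.91 (SE 0.88, adjusted p = 0.0205). Avp stood at 16.4 to 74.0 scaled TPM in control saline and at 0.76 to 11.0 in cKO saline. The cocaine libraries, at 0.47 to 2.12 (labelled control) and 1.11 and 4.08 (labelled cKO), overlapped those of cKO saline. Its fall differed between the labels, at -5.08 (adjusted p = 0.000309) for control and -0.39 (adjusted p = 0.772) for cKO, with an interaction of 4.69 (adjusted p = 0.0479). Ucn, a peptide related to the stress hormone Crh, was called higher under the cKO label (2.76, adjusted p = 0.0210) and not over all libraries.

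Avp is a hypothalamic peptide, and markers of neighbouring tissue differed between libraries. The sum of 7 hypothalamus markers was 134.2 to 466.1 scaled TPM in control saline, 4.0 to 127.8 in the cocaine libraries labelled control, 11.1 to 147.2 in cKO saline, and 35.6 and 74.9 in the cocaine pair labelled cKO. Under the control label 7 of 7 had negative log2 fold changes with cocaine, 4 of them called, and between genotypes after saline 1 was called, Oxt at -5.07 (SE 0.77, adjusted p = 0.0177). Choroid plexus markers summed to 1454.7 in control saline replicate 1 and 2.5 to 55.1 elsewhere, and 7 oligodendrocyte markers to 1414.6 to 1684.9 in control saline and 1562.5 to 2454.9 elsewhere. Thalamic neuron markers were present in every library, summing to 464.4 to 690.9, but single markers moved. With cocaine Prkcd (0.74) and Lef1 (0.54) were called higher and Calb2 (-0.69) lower under the control label, and Gbx2 (0.95) and Calb2 (0.95) higher under the cKO label, with Calb2 called in the interaction (1.64, adjusted p = 0.0392). The part of these differences in the members' values was not tested.

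Immediate early genes and clock genes were also counted. Of 7 tested immediate early genes, which neurons switch on within minutes of stimulation, 2 were called higher over all libraries, Egr1 at 0.65 (SE 0.07, adjusted p = 2.01e-05) and Fos at 0.69 (SE 0.23, adjusted p = 0.0353). All 7 were positive (median 0.29). Under the cKO label 7 of 7 were positive (median 0.53, 3 called higher). Under the control label 6 of 7 were (median 0.16, 1 called higher). Of 12 tested clock genes, whose level depends on the hour of dissection, 1 was called, Per1, which is in both lists. Over all libraries 10 of the 12 were positive (median 0.21). Under the cKO label 10 were positive (median 0.17, 4 called higher), and under the control label 8 (median 0.16, 0 called). Of all tested genes 1.97% were called higher under the cKO label and 1.43% under the control label. Endothelial, mural, astrocyte, microglia, ependymal, habenula, cortex and hippocampus, and striatum markers had 0 calls in either direction over all libraries. Within the labels some of these lists differed in sign, and are given here beside the values of Sgk1 and the other induced genes under the cKO label. Ependymal markers had 6 of 6 positive log2 fold changes under the cKO label (median 0.98, Rsph1 called at 1.27) and 0 of 6 under the control label (median -0.63). Habenula markers had 5 of 5 positive under the cKO label (median 0.89) and 0 of 5 under the control label (median -0.40), with 0 called in each. The interaction called 0 markers of either list. Agt, an astrocyte marker, was called higher under the cKO label (0.60, adjusted p = 0.00146). The part of these markers in the values under the cKO label was not tested. The hour of dissection is not in the labels and its part was not tested.

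Within groups some pairs of members deviated together and others did not. Deviations from the group means of the log2 values were correlated over the 14 libraries, which share their scaling factors, and these correlations are descriptions with no test. Mt1 and Mt2 had r = 0.81, Zbtb16 and Cdkn1a 0.80, Tsc22d3 and Sgk1 0.73, and Fkbp5 and Zbtb16 0.68. At the other end Pdk4 and Mt1 had -0.45, and Sgk1 and Mt1 had 0.00. The 3 tested genes most like each member in this measure were as follows. For Mt1 they were Exoc2 (0.92), Atf2 (0.91) and Hnrnpc (0.90), and for Mt2 2810025M15Rik (0.92), Coa6 (0.91) and Mertk (0.86). For Sgk1 they were Plekhf1 (0.93), Sbno1 (0.89) and Psmb1 (0.88). Nr3c1 had Kcnc2 (0.97), Rasd1 (0.94) and Secisbp2l (0.93), and Nr3c2 had Plekhg5 (0.95), Mtmr12 (0.94) and Mir1969 (0.94). Those of Fkbp5 were Egfem1 (0.92), Fam171a2 (0.91) and Klhl8 (0.90), and those of Tsc22d3 Psmd14 (0.92), Thap7 (0.89) and Pmpcb (0.89). Zbtb16 had Zfp239 (0.88), Acat2 (0.87) and Plin4 (0.86), the last of which is also in the list of induced genes. Pdk4 had Coa5 (0.91), Selenoo (0.88) and 4632415L05Rik (0.86), and Cdkn1a had Zfp605 (0.93), Eef1e1 (0.88) and Hjurp (0.86). As the highest values among all tested genes, these correlations are high by selection. Those of Nr3c2 include cKO saline replicate 4, which stood at 9.90 scaled TPM, and were not recomputed without it.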

How the data were processed

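Paired reads came from thalamus RNA after removal of ribosomal RNA. Per the study's methods and the submitters' processing notes, the authors mapped reads to GRCm38.p4 with STAR 2.5.3a, quantified transcripts with Salmon and summarized genes with tximport. The authors deposited 1 table of TPM per library, with genes named by symbol. Transcript length and library total are divided out, and the listed genes sum to 312659 to 377401 TPM. In 2 of the deposited tables, whose unit is recorded as other, the TPM have a decimal comma, read here as a point. The authors' counts were not used here, so the test is limma on log2 values.

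TPM were divided by unweighted TMM factors (trimming 30% of log ratios and 5% of mean values per side), and values plus 0.5 were put on the log2 scale. Genes reaching 1 TPM in 3 or more libraries entered limma 3.58.1 (R 4.3.3) with an intensity trend, a mean for each of the 4 groups or, with the genotype label not used, for each treatment, and Benjamini-Hochberg adjustment over all 13471 genes. The procedure was tested on simulated data. Coordinates come from GENCODE M21 (GRCm38) and promoter windows from RefSeq (GRCm38.p6). Other steps used Python 3.11.15, numpy 2.4.6 and pandas 2.3.3.

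The members and gene lists were chosen with earlier results of these data known. Named are all 10 members, Maged1, the genes of each list called in the fit without genotype labels or between genotypes after saline (at most 4), and the 3 genes most like each member. Other list genes were named after their values were seen. Alternatives were other scalings, pseudocounts of 0.1 and 1, no filter or a mean of at least 5 TPM, compared groups only, no intensity trend, a replicate block, genotype tags, the 10 libraries with agreeing labels, no fold minimum and each library left out.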

Additional observations from a re-analysis of the deposited data

Results flagged for a closer look

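Of the 30 sets of 4 libraries formed by a member and a group, 2 held a library whose gap to its nearest neighbour took up most of the range of the group. Nr3c2 stood at 9.90 scaled TPM in cKO saline replicate 4, against 5.08 to 5.76 in the other 3. Mt1 stood at 144.8 scaled TPM in control saline replicate 3, against 153.3 to 154.1 in the other 3, whose values lay unusually close together. Such a gap arises in about 1 of 20 independent sets of normally spread values. The 30 sets reuse the same libraries, so 2 of 30 cannot be judged by that share. The library of the Nr3c2 value is also the one with the high cortex and hippocampus markers given above, whose part was not tested.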

How the results depend on the processing

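Over 28 alternatives, the 60 fold changes (10 members in 6 comparisons) were recomputed 1566 times: 1489 kept direction and side of the threshold, 47 changed sign with neither value past the adjusted p, 14 lost a call, 10 gained one and 6 reversed. All 6 reversals were in TPM as deposited, which lowers the median gene with cocaine: Fkbp5 at -0.29 (control) and -0.25 (all libraries), Tsc22d3 at -0.29 (control), -0.33 (cKO) and -0.33 (all libraries), and Cdkn1a at -0.031 (all libraries). On that scale members called fell to 1, Pdk4 lower, for control and 1, Nr3c1 lower, over all libraries, and for cKO were 1 higher and 2 lower. Quantile normalization called 0 members for control and 0 over all libraries, with Mt1 and Mt2 just under the fold minimum, and dropping that minimum gave 4 of 10 over all libraries, where 31.6% of all tested genes passed. Of the other induced genes 9 of 20 were positive in TPM as deposited, and 11 of 11 with a mean of at least 5 TPM. Leaving out any 1 library kept Mt1 at 0.53 to 0.57 and Mt2 at 0.55 to 0.64 over all libraries, both called each time. Same-numbered libraries did not deviate together (mean correlation -0.01 over 18 pairs, 0.00 over 54 pairs of different number). Whether they share a litter or a day is not in the labels and remains unknown. A replicate block left 2 members called for control, 3 for cKO and 2 over all libraries, and 0 in the other comparisons.

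TPM keep no depth, so counting error could not be assessed. The genes of lowest level, Pdk4 and Cdkn1a, are most affected by the pseudocount. The cKO cocaine group has 2 libraries.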
